A study of Mus musculus with 4 samples.

Results

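ATP-binding cassette (ABC) transporters are membrane proteins that spend ATP to move lipids, drugs, metabolites or ions across a membrane. The genes described here are the rows of the deposited gene table whose name is ABC followed by a subfamily letter from A to G, a number and at most 1 further letter. They number 52 of 30854 gene rows. By current symbols they stand for 50 genes, because ABCC1 and ABCC1A are both names of Abcc1, and ABCA8 and ABCA8B are both names of Abca8b.

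The rows were read on 4 Illumina bead arrays of LSK cells, a sorted marrow fraction (Lin-, Sca-1+, Kit+) in which blood stem cells and their first progeny are found. The control group had replicates 1 and 2 and the knockout group replicates 1 and 3, and each array came from a pool of 3 to 5 mice. All mice were of the strain C57BL6/J and aged 12 to 16 weeks. Both groups received pIpC, which imitates viral RNA and induces interferon, 1 week before harvest. The knockout group is labelled B-myb floxed-MxCre. In this model pIpC switches on the Mx promoter, and the Cre recombinase then removes the floxed B-myb gene, now named Mybl2, in the many cell types that respond to interferon. The other group is labelled only control, so the alleles its mice carried are not known here. The comparison asks what loss of the cell cycle transcription factor B-Myb does to the transcripts of stem and early progenitor cells.

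Efflux by ABC proteins is a classic property of blood stem cells. In mouse marrow, Abcg2 pumps out a Hoechst dye and so defines the side population, while the P-glycoproteins of the Abcb1a and Abcb1b genes pump out rhodamine dyes and many drugs. Other members export sterols (Abca1, Abcg1), import fatty acids into peroxisomes (ABCD genes such as Abcd2 and Abcd3) or serve the mitochondrion (Abcb8, Abcb10). The ABCE and ABCF proteins have no membrane part and act on ribosomes and translation.

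Abcb1a, Abcb1b and Abcb4 lie side by side on mouse chromosome 5, with 0 other protein-coding genes between them in RefSeq's annotation of GRCm38.p6, and their rows gave 3 different readings. The Abcb1a row was at background, Abcb1b was read at overlapping levels in the genotypes, and Abcb4 had the largest difference between the genotypes among the ABC genes tested. Their promoters (300 bases, most of them before the start of the gene, plus strand, RefSeq, GRCm38.p6) are shown so that the sequence at each start can be read beside these readings. Capitals mark matches to a MYB binding site, searched as CAACNG or TAACNG on both strands.
Abcb1a, chr5:8566841-8567140: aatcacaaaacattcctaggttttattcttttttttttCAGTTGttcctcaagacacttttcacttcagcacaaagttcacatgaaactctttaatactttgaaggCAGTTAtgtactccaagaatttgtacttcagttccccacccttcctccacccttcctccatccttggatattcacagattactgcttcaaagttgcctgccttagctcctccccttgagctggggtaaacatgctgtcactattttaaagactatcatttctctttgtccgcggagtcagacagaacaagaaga
Abcb1b, chr5:8797897-8798196: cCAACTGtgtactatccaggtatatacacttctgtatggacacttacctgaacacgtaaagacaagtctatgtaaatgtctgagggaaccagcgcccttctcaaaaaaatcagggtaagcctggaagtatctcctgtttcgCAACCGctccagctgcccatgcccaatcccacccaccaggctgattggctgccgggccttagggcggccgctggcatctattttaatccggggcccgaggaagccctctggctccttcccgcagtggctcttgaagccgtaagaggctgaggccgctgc
Abcb4, chr5:8893471-8893770: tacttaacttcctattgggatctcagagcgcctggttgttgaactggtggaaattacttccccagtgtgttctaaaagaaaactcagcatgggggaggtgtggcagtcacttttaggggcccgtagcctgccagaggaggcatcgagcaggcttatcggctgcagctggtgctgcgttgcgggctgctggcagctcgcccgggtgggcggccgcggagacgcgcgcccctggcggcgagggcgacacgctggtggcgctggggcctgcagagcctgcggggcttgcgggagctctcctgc
The Abcb1a and Abcb1b promoters each held 2 such matches and the Abcb4 promoter held 0. Of 32851 promoters of this length, 49.7% held at least 1 match, as did 22 of the 45 promoters found for 38 of the ABC genes. The CCAAT box (CCAAT, both strands) occurred 2 times in the Abcb1b promoter, 1 time in that of Abcb4 and 0 times in that of Abcb1a, against 37.4% of all promoters with at least 1. The GC box (GGGCGG, both strands) occurred 1 time each in the promoters of Abcb1b and Abcb4 and 0 times in that of Abcb1a, against 35.7% of all promoters. The cell cycle homology region (TTTGAA, both strands), an element bound by the MuvB complex that B-Myb joins, occurred 2 times in the Abcb1a promoter and 0 times in the others, against 17.9% of all promoters. TATAAA occurred in none of the 3 promoters. These matches describe letters in a window and were not tested for binding.

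The arrays differed in brightness, which bears on every value that follows. The median raw signal ran from 84.2 to 103.8, against medians of 80.7 to 99.9 for the 936 negative control probes. The control arrays detected 12297 and 13439 gene rows and the knockout arrays 10761 and 8797, where detected means a deposited detection p-value under 0.05. Mybl2, the targeted gene, was at 7.19 and 6.52 for control mice versus 6.72 and 6.62 for knockout mice (log2 intensity; difference −0.18 ± 0.28, SE, n = 2 arrays per genotype, adjusted p = 0.776). The place of its probe relative to the deleted stretch is not known here, so this row cannot serve as a check of the knockout. Kit, a gene of the sorting gate, was lower in the knockout by a log2 difference of −0.86 ± 0.21 (adjusted p = 0.237), and Ly6a, which encodes Sca-1, differed by −0.20 ± 0.34 (adjusted p = 0.803). Of the markers of stem and early progenitor cells, Cd34, Meis1 and Slamf1 passed the detection filter, while Flt3, Procr, Hlf and Mecom did not. Meis1 was lower on both knockout arrays than on both control arrays, by a log2 difference of −1.32 ± 0.34 (adjusted p = 0.245). For Cd34 (−0.05 ± 0.24) and Slamf1 (0.19 ± 0.29) the genotypes overlapped. Nothing in the sources used here says whether the mice of the pools were littermates or were handled together, and p-values measure the spread between these arrays.

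Detection was uneven over the subfamilies. Of the 52 rows, 21 (40.4%) were detected on at least 2 of the 4 arrays, beside 39.4% of all gene rows. 17 rows were detected on all 4 arrays and 24 (46.2%) on none, beside 48.7% of all gene rows on none. A further 3 rows were detected on 3 arrays, 1 on 2 arrays and 7 on 1 array. The mitochondrial members Abcb6, Abcb8 and Abcb10, the peroxisomal members Abcd2 and Abcd3 and all 3 ABCF genes passed. Of 17 ABCA rows only Abca2, Abca3 and Abca7 passed, and of 6 ABCG rows only Abcg1 and Abcg4. The sulfonylurea receptor genes Abcc8 and Abcc9, which encode subunits of potassium channels, were detected on no array. The same held for Abcb11, the bile salt pump of the liver, and for Abcg5 and Abcg8, whose proteins pair to export plant sterols. Abca4, a retinal transporter, Abca12, of skin lipids, and the rows ABCA5, ABCA6, ABCA8A, ABCA8B, ABCA9, ABCA13, ABCA14 and ABCA16 were likewise detected on none, as were Abcb5, Abcc2, Abcc6 and Abcc12. The rows detected on 1 array were ABCA8 (which, like ABCA8B, stands for Abca8b), ABCA15, ABCA17, ABCB9, ABCC1, ABCC3 and ABCC5. Abca1, which exports cholesterol to apolipoprotein A-I, was also detected on no array, with raw signals of 88.5 and 79.9 on the control side against 94.5 and 93.2 on the knockout side.

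**Figure D1:**
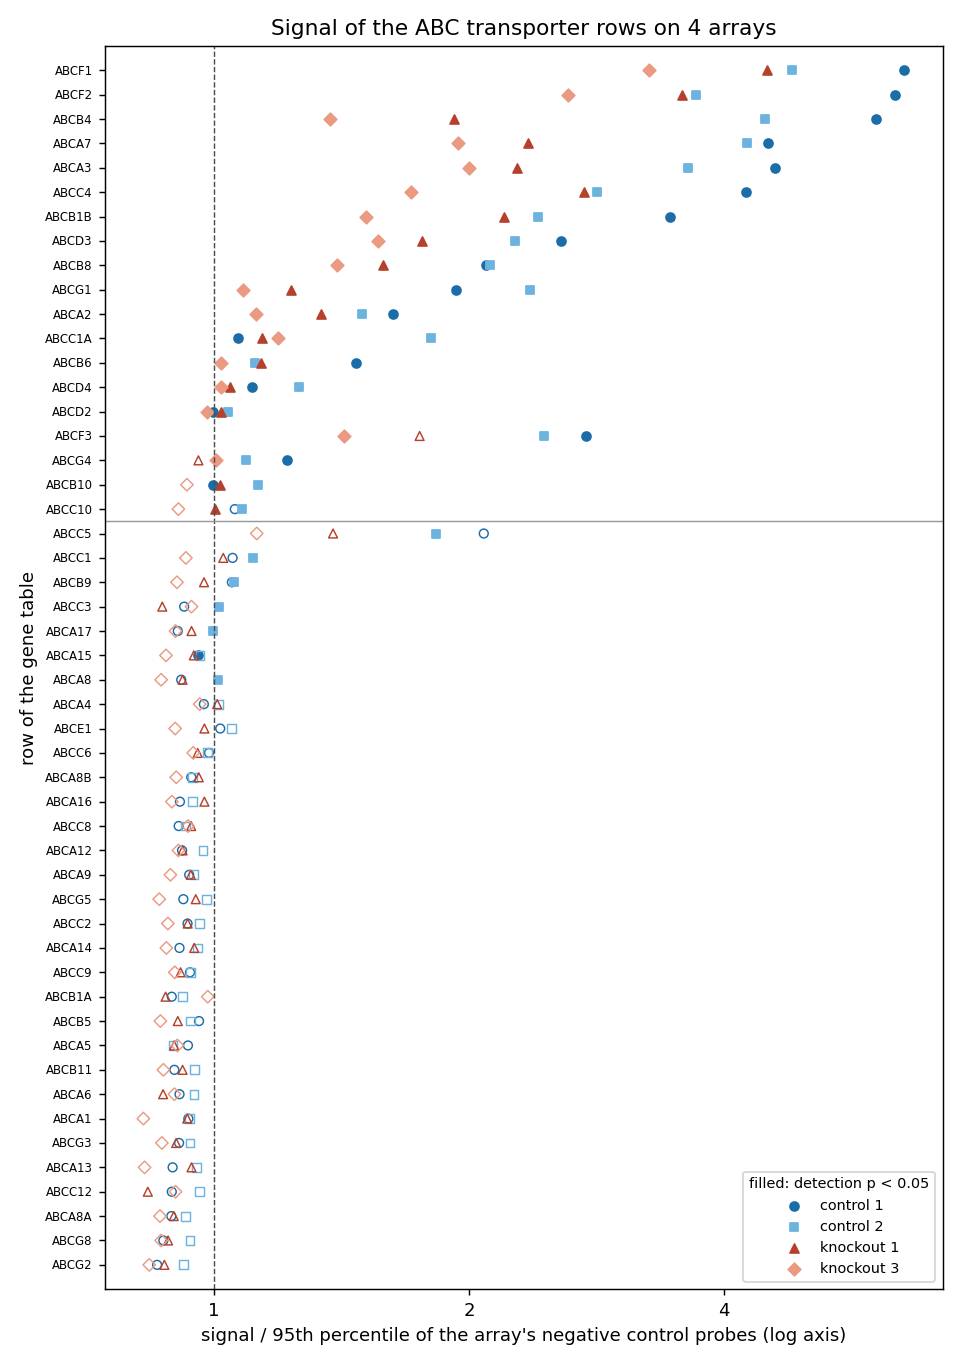
Raw signal of 50 of the 52 ABC rows on each array, divided by the 95th percentile of the negative controls on the same array (log axis, dashed line at 1), with filled symbols where the detection p-value was under 0.05. The rows above the grey line were detected on at least 2 arrays, and ABCG2 comes last when rows are ordered by the number of arrays that detected them and then by their mean signal.

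Of the 3 dye efflux genes, only Abcb1b was detected. Abcg2 had raw signals of 81.3 and 78.6 in control cells compared with 88.8 and 94.7 in knockout cells. Each of these was below the median of the negative control probes on its own array (86.7, 80.7, 94.4 and 99.9). This was so for 4 of the 52 ABC rows (Abcg2, Abcg3, Abca8a and Abcg8) and for 1850 of all 30854 gene rows. The share of negative control probes that were dimmer than Abcg2 ran from 1.18% to 19.7% over the 4 arrays. A signal at background sets no level for Abcg2, since the sequence and place of its probe are not known here. The detection filter kept it out of the tested genes, and without that filter its log2 difference, between background signals, was 0.023 ± 0.072 (adjusted p = 0.937). Abcb1a gave 84.6 and 78.4 for control mice versus 89.1 and 111.0 for knockout mice. On 3 arrays it was below the median negative control, and on knockout replicate 3 it exceeded 92.0% of them with a detection p-value of 0.0801, which is not under the limit.

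Abcb1b was detected on all 4 arrays. Its log2 intensity after background correction and quantile normalization was 7.39 and 6.997 on the control side against 7.50 and 7.15 on the knockout side. The genotypes overlapped, and replicate 1 was the brighter array in both. Abcb1a and Abcb1b are close copies, and which of them the probes can bind is not known here. The difference was 0.13 ± 0.25 (SE, adjusted p = 0.821), with a 95% confidence interval from −0.48 to 0.75, so a moderate difference in either direction is within the error. Its sign turned when control replicate 2 (−0.06) or knockout replicate 1 (−0.04) was left out, and it was −0.85 when arrays were scaled to the median of all gene rows, where the median of all genes tested was −0.70.

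Abcb4 encodes a floppase that moves phosphatidylcholine to the outer leaflet of the membrane and is best known from the bile canaliculus. Its log2 intensity was 8.36 and 8.26 in control cells compared with 7.19 and 6.83 in knockout cells. Both knockout arrays were below both control arrays, and the gap between genotypes was wider than the distance between arrays of a genotype (0.10 in the controls and 0.36 in the knockouts). The log2 difference of −1.30 ± 0.22 (95% confidence interval −1.85 to −0.75) corresponds to a 2.47-fold higher intensity in the controls. It did not pass the threshold over all genes (adjusted p = 0.190), and 123 of the 11538 genes tested had a log2 difference as low or lower. With bead standard errors, the raw signals were 572 ± 37.0 and 381.7 ± 22.9 for control mice versus 195.1 ± 8.36 and 154.6 ± 8.86 for knockout mice. Bead error was thus small beside the difference, although it does not include the spread between pools of mice.

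Abcb4 and Abcb1b were set against each other within each array, as the difference of their quantile-normalized log2 intensities. Abcb4 minus Abcb1b was 0.97 and 1.26 (log2) on the control side against −0.32 and −0.33 on the knockout side. The groups did not overlap and differed by −1.44. This contrast was chosen after the values were seen and is given as a description. An exact permutation test gave p = 0.333, the smallest that 2 arrays against 2 can give. Groups without overlap always give this value, so the test adds nothing to the description.

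**Figure D2:**
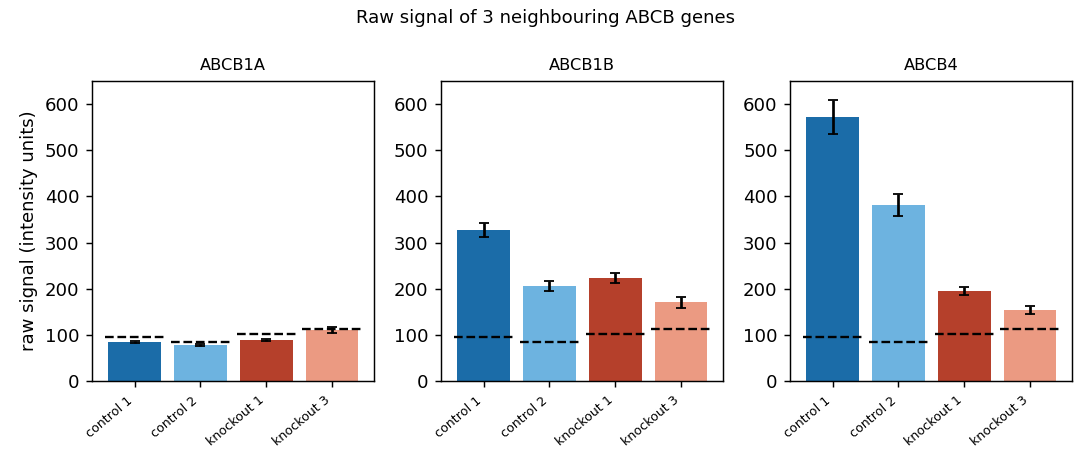
Raw signal (intensity units, bars, with the bead standard error) of the neighbouring genes ABCB1A, ABCB1B and ABCB4 on each array, with dashed lines at the 95th percentile of the negative controls on the same array. ABCB1A stays below the line on all 4 arrays, ABCB1B is above it on all 4, and ABCB4 is at 572 and 381.7 for control mice versus 195.1 and 154.6 for knockout mice.

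Markers of other cell types differed between the genotypes and between arrays beside the values of Abcb4. All 5 megakaryocyte markers read (Pf4, Itga2b, Gp9, Gp5 and Ppbp) were lower on both knockout arrays than on both control arrays, with a median log2 difference of −1.24 and 0 past the adjusted threshold. Their summed linear level was 1171 and 1177 for control mice versus 378.3 and 325.3 for knockout mice. The summed level of 4 mast cell and basophil markers was 575.6 and 580.7 versus 307.1 and 302.7. Of these, Prss34 (log2 difference −2.47 ± 0.44) and Cpa3 (−0.75 ± 0.21) were lower without overlap. Fcer1a (−0.32 ± 0.37) and Mcpt8 (0.27 ± 0.43) overlapped. For 7 neutrophil markers the summed level was 1500.1 and 4469 versus 16161 and 1025, so knockout replicate 1 held the most and knockout replicate 3 the least. For 6 erythroid markers it was 3014 and 2240 versus 1208 and 4732, so the knockout arrays lay on either side of the controls. Car1, an erythroid carbonic anhydrase in that list, was lower on both knockout arrays (log2 difference −2.36 ± 0.25, adjusted p = 0.114), while Hba-a1, a globin gene, and Slc4a1, the red cell anion exchanger, were highest on knockout replicate 3. For 3 B cell markers the summed level was 498.9 and 295.3 versus 269.8 and 95.8, led by Vpreb1 (−1.54 ± 0.66, adjusted p = 0.342). For 3 T cell markers it was 232.1 and 212.0 versus 192.4 and 128.5, and for 2 monocyte and macrophage markers 103.7 and 88.9 versus 128.4 and 96.5. Of the T cell markers, Lck (−0.69 ± 0.25) and Cd3e (−0.14 ± 0.20) were lower without overlap, while Cd3g (0.14 ± 0.39) overlapped. The endothelial marker Pecam1 differed by −0.010 ± 0.20. The endothelial markers Cdh5 and Kdr and the macrophage marker Adgre1 did not pass the detection filter. The part of these cells in the differences of Abcb4 and Abcg1 was not tested, and in bulk RNA fewer cells of a type and less RNA per cell cannot be told apart.

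Counts over the ABC genes were near those over all genes. Of the 21 tested, 0 passed an adjusted p of 0.05 in limma, beside 0% of all 11538 genes. 3 had an unadjusted p under 0.05 (Abcb4 and Abcg1 among them), all lower in the knockout, and in either direction this was 14.3% of the ABC genes beside 15.3% of all genes (8.77% lower, 6.56% higher). Leaving out single arrays put the log2 difference of Abcb4 between −1.49 and −1.12 and that of Abcg1 between −1.12 and −0.45. The genotypes did not overlap for 12 (57.1%), beside 50.1% of all genes. For 7 both knockout values lay below both control values and for 5 above, beside 28.1% and 22% of all genes. Abcb4 alone among the ABC genes differed at least 2-fold without overlap, beside 3.62% of all genes in either direction and 2.32% lower. The median log2 difference was 0.13 (12 higher, 9 lower) beside −0.04 for all genes, and the median absolute difference was 0.23 beside 0.28. With single arrays left out the ABC median lay between −0.047 and 0.078. The control arrays were farther apart than the genotypes for 12 of the 21 genes.

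**Figure D3:**
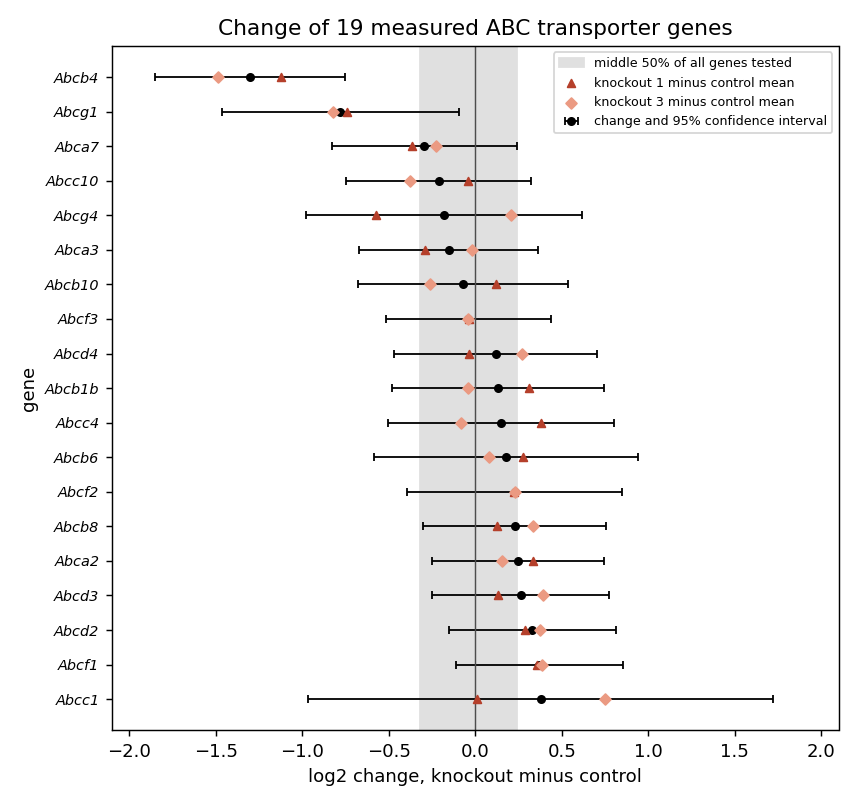
Log2 difference, knockout minus control, of 19 of the 21 tested ABC genes with its 95% confidence interval (black), and each knockout array minus the control mean (coloured), over the middle 50% of all genes tested (grey band). The intervals of Abcb4 and Abcg1 lie below 0, and the other 17 include 0.

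Of the 5 tested genes of the ABCA and ABCG subfamilies, 4 were lower in the knockout, beside 6182 of all 11538 genes. The other, Abca2, was higher (−0.65 under median scaling, beside −0.70 for all genes), and 0 of the 5 passed the adjusted threshold. Abcg1, which exports cholesterol to high-density lipoprotein and is a target of the LXR receptors, had log2 intensities of 6.28 and 6.95 on the control side against 5.87 and 5.79 on the knockout side. The knockouts were lower without overlap, with the controls farther apart than the knockouts. The difference was −0.78 ± 0.28 (adjusted p = 0.292), and it took values of −0.45 when control replicate 2 was left out, −1.12 when control replicate 1 was left out and −0.39 without background correction. Abca7, a phospholipid transporter linked to phagocytosis, had log2 intensities of 7.86 and 8.16 in control cells compared with 7.64 and 7.78 in knockout cells. Its log2 difference of −0.29 ± 0.22 (adjusted p = 0.534) was close to the distance between the controls. Abca3, the surfactant lipid transporter of lung cells, had log2 intensities of 7.89 and 7.86 against 7.58 and 7.85, so knockout replicate 3 was near the controls. Abca2, found mainly in lysosomes and endosomes, was the higher one, with log2 intensities of 5.88 and 5.80 for control mice versus 6.17 and 5.99 for knockout mice (log2 difference 0.25 ± 0.20, adjusted p = 0.578). Abcg4, a close relative of Abcg1, overlapped between genotypes and had the opposite sign without control replicate 1 (0.018) and without knockout replicate 1 (0.21).

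The peroxisomal transporters Abcd2 and Abcd3 were higher in the knockout, with Abcd3 at −0.72 under median scaling, and neither passed the adjusted threshold. Abcd2, which imports fatty acids into peroxisomes, had log2 intensities of 4.51 and 4.58 in control cells compared with 4.83 and 4.92 in knockout cells, higher without overlap by 0.33 ± 0.19 (adjusted p = 0.453). Its raw signals of 94.5, 88.6, 103.6 and 110.9 were near background on every array, and on 2 of the 4 arrays they did not exceed the 95th percentile of the negative controls. Abcd3, which carries branched-chain fatty acids and bile acid precursors, had log2 intensities of 6.85 and 6.85 for control mice versus 6.98 and 7.25 for knockout mice (log2 difference 0.26 ± 0.21, adjusted p = 0.565).

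Of the ABCC genes, named for resistance to several drugs, Abcc1, Abcc4 and Abcc10 were tested. Abcc4, which exports cyclic nucleotides and nucleotide analogues and sits in platelet granules, had log2 intensities of 7.75 and 7.35 on the control side against 7.93 and 7.47 on the knockout side. The genotypes overlapped, with replicate 1 the brighter in each, and the log2 difference was 0.15 ± 0.26 (adjusted p = 0.810). Abcc1, which exports glutathione conjugates and leukotriene C4, had 2 rows, and only the row ABCC1A passed the detection filter. That row had log2 intensities of 4.76 and 6.31 in control cells compared with 5.54 and 6.28 in knockout cells. Control replicate 1 was far below the other control, and the difference of 0.38 ± 0.54 had the widest error of the ABC genes (adjusted p = 0.762). Leaving out control replicate 1 gave −0.40 and leaving out control replicate 2 gave 1.15. The second row, ABCC1, gave raw signals of 99.8, 95, 104.2 and 104.6 over the same arrays and was detected on control replicate 2 alone, so the rows of this gene disagree. Abcc10, a drug exporter, had log2 intensities of 4.73 and 4.72 for control mice versus 4.68 and 4.35 for knockout mice, with raw signals above the highest negative control on none of the 4 arrays.

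**Figure D4:**
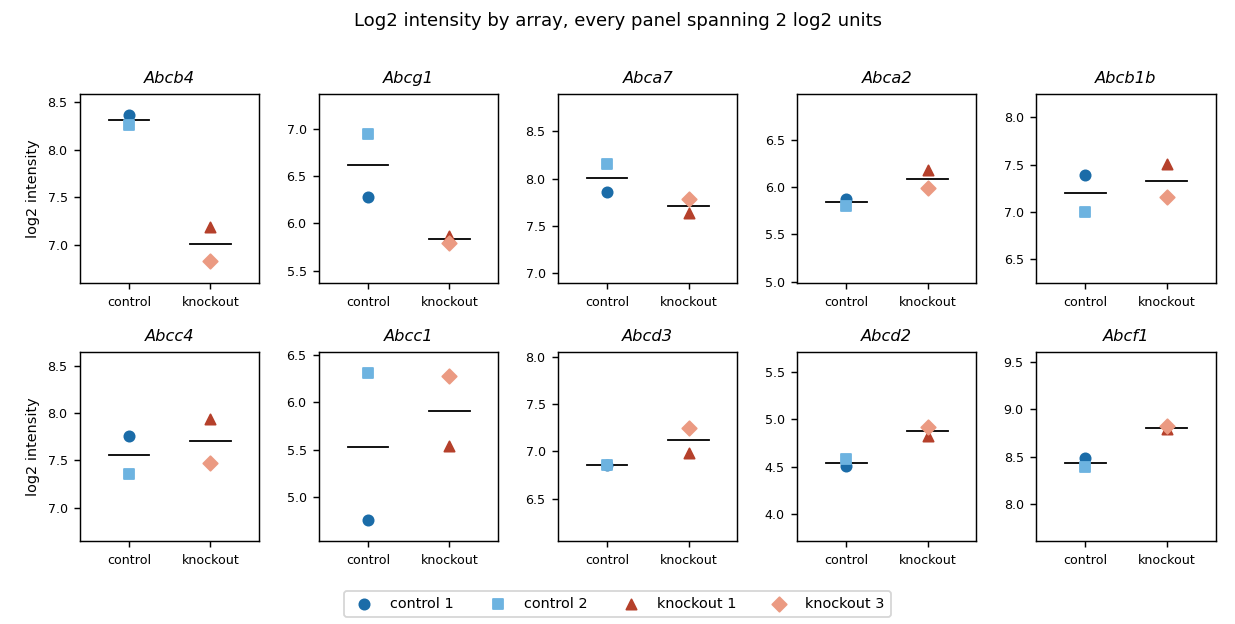
Log2 intensity after background correction and quantile normalization of 10 ABC genes on each array, with a line at the mean of each genotype and every panel spanning 2 log2 units. Control and knockout arrays are apart for Abcb4, Abcg1, Abca7, Abca2, Abcd3, Abcd2 and Abcf1, and overlap for Abcb1b, Abcc4 and Abcc1.

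The mitochondrial genes Abcb6, Abcb8 and Abcb10 had log2 differences between −0.07 and 0.23, and none of them passed the adjusted threshold. Abcb8, linked to iron handling in mitochondria, had log2 intensities of 6.46 and 6.69 in control cells compared with 6.70 and 6.90 in knockout cells, higher by 0.23 ± 0.21 (adjusted p = 0.629). Abcb6, linked to porphyrin transport, differed by 0.18 ± 0.31, and Abcb10, which supports heme synthesis in red cell precursors, by −0.07 ± 0.25, both with overlap. The signs of both turned when single arrays were left out, as did that of Abcd4. Under median scaling Abcb8 was at −0.73, near all genes. The lysosomal cobalamin transporter gene Abcd4 differed by 0.12 ± 0.24, also with overlap.

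Of the ABC proteins without a membrane part, Abcf1, which promotes translation initiation, had log2 intensities of 8.49 and 8.39 for control mice versus 8.79 and 8.82 for knockout mice. The knockouts were higher without overlap and each pair of arrays lay close together, yet the difference of 0.37 ± 0.19 did not pass the threshold (adjusted p = 0.411), and under median scaling it was −0.49. Abcf2 had log2 intensities of 8.45 and 7.91 on the control side against 8.41 and 8.41 on the knockout side, so its difference of 0.23 ± 0.25 came with a low control replicate 2 and was −0.05 without it. Abcf3, at log2 intensities of 6.97 and 7.04 against 6.97 and 6.96, differed by −0.04 ± 0.19. Abce1, which splits ribosomes into subunits after termination, was detected on no array, with raw signals of 96.5 and 89.5 in control cells compared with 99 and 101.6 in knockout cells. Its control signals exceeded 96.3% and 99.5% of the negative control probes although the deposited detection p-values were 0.778 and 0.690.

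The choice of scaling decides whether any ABC gene is called. When arrays were aligned on the median of all gene rows, all genes tested had a median difference of −0.70. Then 3 of the 21 ABC genes passed the adjusted threshold, all lower, beside 940 of all 11538 genes in either direction. Abcb4 was then at −2.23 (adjusted p = 0.0306) and Abcg1 at −1.65 (adjusted p = 0.0373). Relative to the median of all genes these are −1.52 and −0.95. Under the main setting and 7 other settings for background, normalization, filter, rows and variance the adjusted p of Abcb4 lay between 0.0822 and 0.286.

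**Figure D5:**
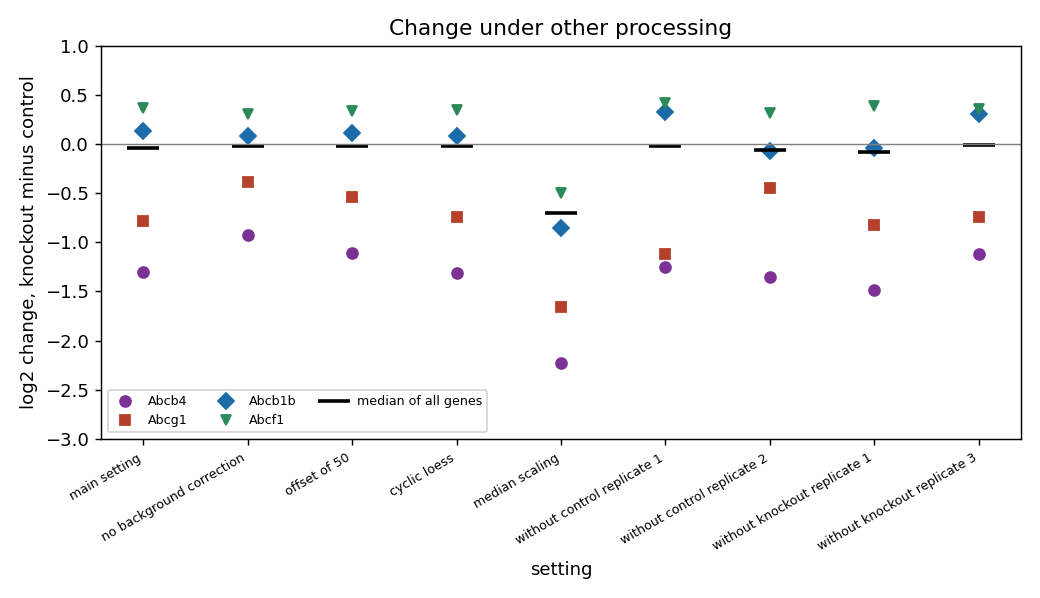
Log2 difference, knockout minus control, of 4 ABC genes (symbols) and the median of all genes tested (black bars) under the main setting, 4 other ways of background correction and scaling, and with each array left out. Abcb4 is lowest in every column, and under median scaling all 4 genes shift down together with the median of all genes.

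Genes that work with ABC proteins or control their expression, 81 names in 10 groups, were read beside them. 52 were tested, 27 higher and 25 lower, 0 past the adjusted threshold and 4 with an unadjusted p under 0.05 (7.69%, beside 15.3% of all genes). In the group of mitochondrial iron-sulfur and heme genes, the pathways that mitochondrial ABC proteins serve, the genotypes did not overlap for all 9 tested, 6 higher and 3 lower, beside 50.1% of all genes. Under median scaling that split was 1 higher and 8 lower, with a median 0.29 above that of all genes. No other group was without overlap throughout under the main setting. The counts were 4 of 6 for antigen peptide loading, 3 of 6 for ribosome recycling, 2 of 4 for cobalamin handling and 2 of 8 for LXR and SREBP genes. They were 1 of 2 for ABC transporters under other symbols, 1 of 7 for peroxisomal partners, 1 of 6 for drug disposal and 0 of 4 for drug efflux regulators. Alas1, the rate-limiting enzyme of heme synthesis outside red cells, had log2 intensities of 10.22 and 10.19 for control mice versus 10.91 and 11.34 for knockout mice, higher by 0.92 ± 0.23 (adjusted p = 0.244; 0.30 under median scaling). Nfs1, an enzyme that releases sulfur for iron-sulfur clusters, was higher by 0.70 ± 0.25 (adjusted p = 0.296, and −0.28 under median scaling). Ppox, a late enzyme of heme synthesis, was lower by a log2 difference of −0.61 ± 0.21 (adjusted p = 0.291). Impact, a brake on the Gcn2 kinase, was at −0.69 ± 0.27 (adjusted p = 0.318). Nr1h2, which encodes an LXR receptor, differed by −0.14 ± 0.22 with overlap. Of the 8 LXR and SREBP genes tested, Apoe alone was lower without overlap (−0.91 ± 0.37, adjusted p = 0.326; −1.85 under median scaling). Scap alone was higher without overlap (0.43 ± 0.24, adjusted p = 0.437). The peptide transporters Tap1 and Tap2, ABC proteins under other symbols, differed by −0.42 ± 0.21 (adjusted p = 0.389) and −0.05 ± 0.25.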

How the data were processed

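Total RNA of sorted LSK cells was hybridised as biotinylated cRNA to Illumina bead arrays, 1 array per pool, per the labels' protocols. The deposited gene table gave 1 intensity per gene name and array, neither background-subtracted nor normalized, per the file headers. Beside it the authors deposited a detection p-value, the number of beads and their standard error (a signal on the intensity scale). The way probes were combined, the detection method and the array type are not given in the sources used here. There were 30854 gene rows, 936 negative control probes and 1 row overwritten by annotation text, which was dropped. The deposited value table of 30840 rows held linear intensity under probe identifiers that no table used here pairs with genes. All 2671 of its rows above 300 on every array matched quantile-normalized intensities of the gene table within 1%. Its column medians were 94.1, 94.2, 94.2 and 94.2.

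Names were updated through RefSeq's table for GRCm38.p6 (16223 current, 5684 older, 868 by gene identifier, 8079 unmatched). Values were background-corrected with the negative control probes (offset 16), quantile-normalized and taken to log2 with neqc of limma 3.58.1 in R 4.3.3. The filter kept rows detected (p-value under 0.05) on at least 2 of 4 arrays and, per gene, the row with the highest mean, leaving 11538 genes. The genotypes were compared as knockout minus control by lmFit and eBayes of limma (3.72 prior degrees of freedom), two-sided, adjusted by Benjamini-Hochberg over all genes, with a threshold of 0.05. Errors on differences are standard errors of this fit, and the number of arrays limits their precision. Control and knockout each had 2 arrays. Other settings were no background correction, an offset of 50, cyclic loess, median scaling, detection on all 4 arrays or no filter, unmerged rows, trend and robust eBayes, and each array left out. Genes given in full were Abcg2, Abcb1a and Abcb1b, those with an unadjusted p under 0.05, the 10 with the largest difference without overlap and the 5 brightest in the controls. Partner genes were named at an unadjusted p under 0.05 without overlap, and Nr1h2, Apoe, Scap, Tap1 and Tap2 were added after their values were seen. Some members and markers enter the counts but are not reported here one by one. The members, gene lists and tests were chosen with earlier results of these data known.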

Additional observations from a re-analysis of the deposited data

Results flagged for a closer look

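Abcc5, which exports cyclic nucleotides, has a signal among rows that the comparison left out. Its raw signal was 197.4 and 156.1 for control mice versus 140.4 and 126.8 for knockout mice, above the highest of the 936 negative control probes on each array (104.4, 94.6, 107.9 and 125.3). It was nonetheless detected on 1 array alone, with deposited detection p-values of 0.0545, 0.0326, 0.249 and 0.0679. Without a detection filter its log2 difference was −0.25 ± 0.13 (limma, adjusted p = 0.616). Over all gene rows this combination occurred 346 times (1.12%).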

How the results depend on the processing

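No paired analysis was possible because the groups share only replicate number 1. The deposited value table was not used as an alternative, since its identifiers are not paired with genes. Over all genes, 0 of 11538 passed the adjusted threshold (1769 at an unadjusted p under 0.05), and 3 passed with cyclic loess, 15 with trend and robust eBayes, 17 with detection on all 4 arrays and 940 with median scaling. Median scaling aligns arrays on the median of all gene rows, most of which failed the detection filter. It gave 3 of the 21 ABC genes past the threshold and 6 at an unadjusted p under 0.05, beside 4388 of all 11538 genes at that unadjusted p. Under it 14 ABC genes were lower and 0 higher without overlap. The ABC median was −0.72 where all genes were at −0.70, so the ABC genes moved down with all genes. Differences that turned sign there were Abcd4 −0.47, Abcb1b −0.85, Abcc4 −0.81, Abcb6 −0.53, Abcf2 −0.67, Abcb8 −0.73, Abca2 −0.65, Abcd3 −0.72, Abcf1 −0.49, Abcc1 −0.35. With no detection filter 49 ABC genes were measured, 7 at an unadjusted p under 0.05, beside 3283 of all 28711 genes. Of the 49, 11 were lower and 10 higher without overlap, with a median of 0.016. The share of all genes without overlap was not counted under median scaling, without the filter or with an array left out. The counts without overlap in these settings are therefore no result about the ABC genes. The ABC median was 0.054 without background correction, 0.083 with an offset of 50 and 0.18 with detection on all 4 arrays. Abcb10 was at 0.062 with cyclic loess. Leaving out each array in turn, which by construction makes overlap rarer, gave 7 to 10 ABC genes higher and 8 to 9 lower without overlap. The ABC median was then −0.047 to 0.078. Differences whose sign turned in this way ranged over Abcb10 −0.26 to 0.12, Abcb1b −0.065 to 0.33, Abcb6 −0.22 to 0.57, Abcc1 −0.40 to 1.15, Abcc4 −0.082 to 0.38, Abcd4 −0.059 to 0.29, Abcf2 −0.047 to 0.50, Abcg4 −0.57 to 0.21. Abcb4 and Abcg1 were lower under the 12 other settings run as well. The causes of these shifts were not tested. Signals near the negative controls limit Abcc10, Abcb10, Abcd2 and Abcg4.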
